A study of Homo sapiens with 18 samples.

Results

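A set of 9 genes of the p53 feedback loop was followed in 3 human lung cell lines, taken by symbol from the 18475 genes of the expression table. The 9 genes were MDM2, MDM4, PPM1D, CCNG1, CDKN1A, ZMAT3, PHLDA3, AEN and RPS27L, and all 9 were present. The lines were BEAS-2B, an immortalized bronchial epithelial line, H446, labelled as small cell lung cancer, and A549, a lung adenocarcinoma line. Each line had 3 control libraries, which the labels call before irradiation, and 3 libraries harvested 24 h after 10 Gy of X-rays, so that there were 18 poly(A) RNA libraries in 6 groups of n = 3. The harvest time of the controls is not given in the sources used here, so irradiation and time in culture cannot be told apart. The genotype label was wild type in every library and no other agent was given. The question was how strongly the loop was expressed in each unirradiated line and how far each of its genes moved after irradiation.

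The transcription factor p53 accumulates after DNA breaks and switches on genes that stop the cell cycle, repair DNA or kill the cell. Several of these genes turn p53 off again. MDM2 is the E3 ubiquitin ligase that marks p53 for degradation, MDM4 is its relative that binds p53 and blocks transactivation, PPM1D (the phosphatase WIP1) removes damage-induced phosphates, and CCNG1 encodes cyclin G1, a partner of a phosphatase that acts on MDM2. As background on the lines, A549 is known to carry an intact p53 gene, H446 is known to carry a mutated one, and BEAS-2B was immortalized with a viral large T antigen that binds p53. None of these states was measured here.

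The genes lie on 7 chromosomes (GRCh38, GENCODE v29, Entrez numbers as in the expression table). MDM2 (Entrez 4193) is at chr12:68808176-68850686, plus strand, and MDM4 (4194) at chr1:204516379-204558120, plus strand. PPM1D (8493) is at chr17:60600183-60666280, plus strand, and CCNG1 (900) at chr5:163437569-163446151, plus strand. CDKN1A (1026) is at chr6:36676460-36687339, plus strand, and ZMAT3 (64393) at chr3:179017223-179072279, minus strand. PHLDA3 (23612) shares chromosome 1 with MDM4, at chr1:201464383-201469237, minus strand. AEN (64782), at chr15:88621296-88632282, plus strand, and RPS27L (51065), at chr15:63125872-63158021, minus strand, share chromosome 15.

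The promoter windows are shown because the 9 genes share a regulator whose binding sequence is known. Windows from 250 bases before to 50 bases after each annotated start site (RefSeq, GRCh38.p14) were searched for the p53 full site, 2 blocks of 10 bases with no spacer, a pattern that reads the same on both strands. Windows were found for 8 of the 9 genes, not for PHLDA3. Of 35116 windows of all genes, 0.649% held a match with at most 2 mismatches, 5.2% with at most 3, and 70.5% with at most 5. Matches with at most 3 mismatches were found for the 3 genes below. Capitals mark the matching 20 bases, and each sequence reads 5′ to 3′ on the gene's own strand.
MDM2, chr12:68808908-68808995, plus strand, from 109 to 22 bases before an internal start site: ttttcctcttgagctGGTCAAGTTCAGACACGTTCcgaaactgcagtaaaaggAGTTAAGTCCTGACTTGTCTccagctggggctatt
AEN, chr15:88621301-88621330, plus strand: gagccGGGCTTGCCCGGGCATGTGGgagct
RPS27L, chr15:63157522-63157551, minus strand: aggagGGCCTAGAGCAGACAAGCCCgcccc
The MDM2 stretch lay inside the gene but outside every annotated exon and held 2 matches, the first with 2 mismatches and the second with 3. As background, the p53-responsive promoter of MDM2 is known to be an internal one. The AEN match had 2 mismatches and the RPS27L match had 3, and both overlapped annotated exons (GENCODE v29). The closest 20 bases in the other windows had 4 mismatches for PPM1D and ZMAT3, 5 for MDM4 and CDKN1A and 6 for CCNG1. CDKN1A is known to be driven by sites further upstream than this window, so a window without a match says nothing about the gene.

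One library stood apart. Replicate 2 of irradiated BEAS-2B, as its label names it, had a median deviation over the 9 genes of -0.10 from the BEAS-2B control mean on the log2(FPKM + 1) scale, against 0.67 in replicate 1 and 0.97 in replicate 3. Whether this library's label and exposure are right was not tested, and every BEAS-2B value over all libraries rests on them. Some other p53 targets in it read with the irradiated libraries (chosen after their values were seen). BAX was at 77.6, 80.5 and 78.5 FPKM in irradiated replicates 1, 2 and 3 against 65.4 to 67.1 in the controls, BBC3 at 5.07 in replicate 2 against at most 3.69, and TNFRSF10C at 1.27 against at most 0.75. Others, also chosen after their values were seen, read below every control in replicate 2. Among these were FAS (3.47 FPKM against at least 3.82), RRM2B (15.3 against at least 17.23) and TP53INP1 (5.69 against at least 6.3). No count over all targets was made for this library. The BEAS-2B differences of the 9 genes are therefore given with and without this library. The choice of that library rested on these same values, so the tests without it are a description of the other 5 libraries. Values in replicate 2 also ran with GC content (Spearman correlation 0.75 between a gene's deviation from the control mean and its GC percent, against 0.53 in replicate 1, 0.01 in replicate 3 and -0.49, 0.375 and -0.09 in the controls). A correction for GC content left 0 of the 9 genes called in BEAS-2B, as before it, with CDKN1A at 1.46 and MDM2 at 1.19. In H446 the same correlation was -0.51 to -0.32 in the irradiated libraries and -0.14 to 0.14 in the controls. Within each line, libraries correlated at 0.992 or above. Of 7 epithelial markers 5 averaged at least 1 FPKM in each group. The keratins KRT7, KRT8 and KRT18 were highest, with means of 315 FPKM or more in the controls, while EPCAM averaged 0.393 to 2.39 FPKM, CDH1 at most 0.71 in BEAS-2B and H446, and KRT5 at most 0.01. In H446 the 6 neuroendocrine markers measured averaged below 1 FPKM, summing to 0.30 to 0.78 per library, so that these markers of the labelled small cell type were near 0, and NEUROD1 and INSM1 were not analysed here. The same 6 summed to 12.2 to 14.7 FPKM in A549. The 4 alveolar markers averaged below 1 FPKM in all groups, A549 included. Of 5 mesenchymal markers, VIM was at 898 FPKM or more in all groups, CDH2 averaged 25.7 to 51.1 and COL1A1 4.19 to 9.14. COL1A2 averaged at most 0.507, and PDGFRB was near 0 in H446 and A549 and at 11.7 in BEAS-2B controls. Of the 2 blood cell markers, PTPRC averaged at most 0.06 FPKM, and CD14 averaged 8.13 in BEAS-2B controls and 8.36 after 10 Gy.

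In the unirradiated cells, CCNG1, RPS27L and CDKN1A were the 3 most abundant of the 9 genes in every line. Values are FPKM, which are scaled by transcript length and can be compared between genes. In BEAS-2B controls CCNG1 was highest (237 ± 14.0 FPKM, SD, n = 3), followed by RPS27L (96.4 ± 10.0) and CDKN1A (84.1 ± 3.63), and MDM4 was lowest (5.13 ± 0.635). In H446 the order began with CCNG1 (87.5 ± 1.05) and ended with ZMAT3 (2.66 ± 0.121). In A549 RPS27L led (143 ± 7.79) and ZMAT3 was again lowest (5.45 ± 0.246). The middle of the order was AEN, MDM2 and PHLDA3 in all 3 lines, between 10.9 and 35.7 FPKM. Adjacent genes whose control libraries overlapped were AEN and MDM2 in BEAS-2B, and PHLDA3 and AEN as well as PPM1D and MDM4 in H446. All other neighbours were separated in every control library.

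**Figure D1:**
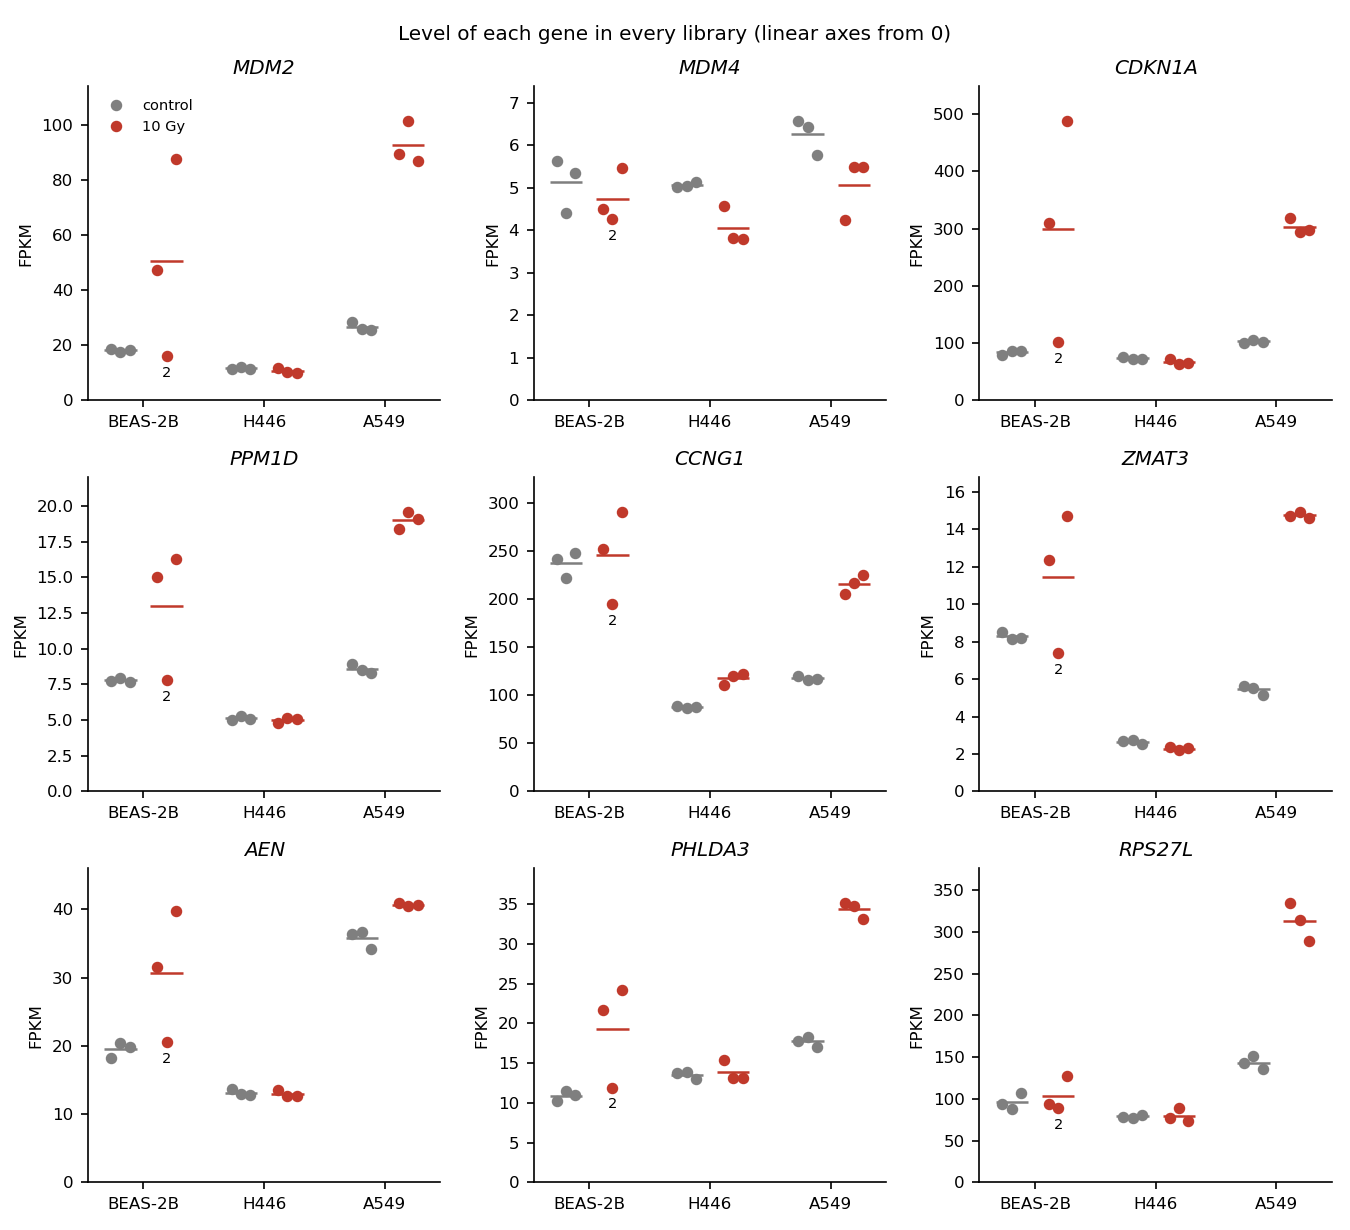
FPKM of the 9 genes (1 panel each, linear axis from 0) in every library of the 3 lines, controls in grey and 10 Gy in red, with a bar at the mean of 3 libraries and the number 2 beside BEAS-2B 10 Gy replicate 2. In A549 the red points lie above the grey ones for all genes but MDM4, in H446 the 2 colors lie close together except for CCNG1, and in BEAS-2B replicates 1 and 3 rise for most genes while replicate 2 stays near the controls.

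A549 controls had higher levels than H446 controls for 8 of the 9 genes (limma over all 18 libraries, adjusted p below 0.05). This is read against 83.2% of the 13071 genes tested that differed between these 2 lines, with 42.7% higher and 40.5% lower in A549. The largest gap was in AEN, at 35.7 ± 1.32 FPKM in A549 and 13.1 ± 0.416 in H446 (log2 difference 1.38, SE 0.14, adjusted p = 2.15e-08). MDM2 stood at 26.6 ± 1.53 and 11.6 ± 0.436 FPKM (log2 difference 1.13, SE 0.33, adjusted p = 0.00448). CDKN1A was the gene that did not pass (log2 difference 0.49, 95% interval -0.18 to 1.16), although its control libraries did not overlap. The PHLDA3 call ended at equal totals (adjusted p = 0.059), without a filter (0.0617) and without A549 control replicates 1 or 2 or any 1 H446 control (0.0542 to 0.0845), and the MDM4 call without A549 control replicates 1 or 2 (0.0715 and 0.0589). Without BEAS-2B 10 Gy replicate 2, a library of neither line, the SE of CDKN1A in the shared fit was 0.10 in place of 0.32. All 9 genes then passed (84.2% of genes, 43.2% higher and 41.0% lower), although the differences themselves did not change. That library was chosen after its values were seen, so this only describes the remaining libraries.

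BEAS-2B controls were higher than H446 for 5 of the 9 genes, CCNG1, ZMAT3, AEN, PPM1D and RPS27L, and lower for 0 (81.1% of all genes differed, 45.9% higher and 35.2% lower). Without BEAS-2B 10 Gy replicate 2, MDM2 also passed as higher and PHLDA3 as lower (82.3% of genes, 46.5% higher and 35.7% lower), and both did so without 10 Gy replicate 3 (adjusted p = 0.0163 and 0.0462). At equal totals 4 were higher and 1 lower, since RPS27L did not pass (0.0824) and PHLDA3 passed as lower (0.0277). RPS27L also did not pass without BEAS-2B control replicate 3 (0.116) or H446 control replicate 2 (0.0586). CCNG1 at 237 FPKM against 87.5 was the largest (log2 difference 1.43, SE 0.09, adjusted p = 5.84e-11). Against A549, BEAS-2B was higher for CCNG1 and ZMAT3 and lower for MDM4, AEN, PHLDA3 and RPS27L (83.8% of all genes differed, 45.4% higher and 38.3% lower). The MDM4 call ended without A549 control replicates 1 or 2 (adjusted p = 0.084 and 0.0693) or BEAS-2B control replicate 2 (0.151). For MDM2, CDKN1A and PPM1D the difference between BEAS-2B and A549 did not pass, with 95% intervals of -1.22 to 0.18, -0.96 to 0.38 and -0.45 to 0.20 on the log2 scale. Without BEAS-2B 10 Gy replicate 2, all 9 genes passed in this comparison, 7 of them lower in BEAS-2B (84.6% of genes, 45.8% higher and 38.8% lower). Leaving out an irradiated library changed the shared spread estimate and not the differences between controls.

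After 10 Gy, 8 of the 9 genes rose in A549 and MDM4 fell, 0 passed in BEAS-2B with all 6 libraries, and in H446 CCNG1 rose and MDM4 fell. The same test called 51.7% of 11993 genes in A549 (25.3% higher, 26.4% lower), 38.4% of 11479 in H446 (14.8% higher, 23.6% lower) and 0.0% of 11734 in BEAS-2B. In BEAS-2B 1446 genes had an unadjusted p below 0.05, 5 of the 9 among them, and the lowest adjusted p of any gene was 0.241. Without replicate 2, 6 of the 9 rose and 0 fell in BEAS-2B, where 1.99% of 11680 genes were called, 1.92% higher and 0.0771% lower. Since each library was made from a whole culture, more RNA in every cell and RNA from a part of the cells cannot be told apart.

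**Figure D2:**
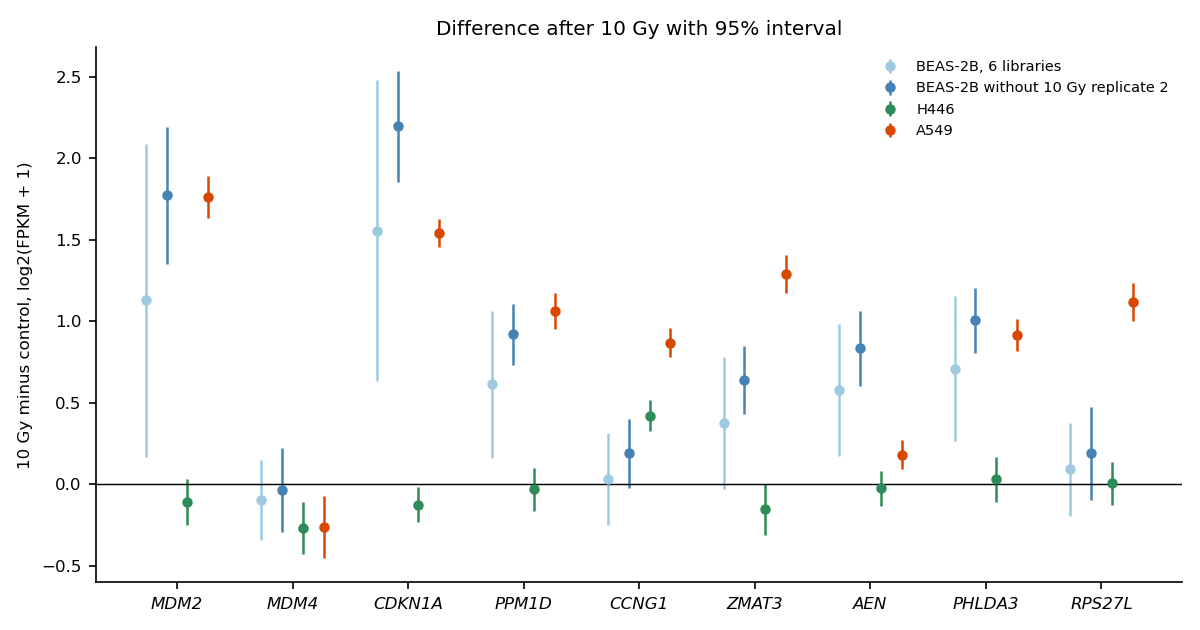
Difference between 10 Gy and control on the log2(FPKM + 1) scale (vertical axis) for the 9 genes, with the 95% interval of the limma fit of each line, and for BEAS-2B with and without 10 Gy replicate 2. A549 intervals lie above 0 for all genes but MDM4, H446 intervals lie near 0 except for CCNG1 and MDM4, and the BEAS-2B intervals narrow without replicate 2 for genes other than MDM4 and RPS27L.

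MDM2, the ligase that closes the loop, showed the largest A549 rise of the 9 genes. Its A549 controls read 28.4, 25.8 and 25.6 FPKM and the irradiated libraries 89.6, 102 and 87.0, a 3.49-fold rise of the mean with no overlap. The log2 difference was 1.76 (SE 0.06, adjusted p = 8.02e-10), the 3rd highest among all 11993 genes tested. In H446 the controls read 11.6, 12.1 and 11.2 FPKM and the irradiated libraries 11.8, 10.4 and 9.94, which overlapped (log2 difference -0.11, 95% interval -0.25 to 0.03). Without H446 10 Gy replicate 1 it was -0.17 and passed as lower (adjusted p = 0.029). In BEAS-2B the controls were 18.9, 17.5 and 18.2 FPKM, and the irradiated libraries were 47.5 in replicate 1, 16.2 in replicate 2 and 87.8 in replicate 3. Replicates 1 and 3 were 2.61 and 4.83 times the control mean, while replicate 2 lay below all controls. The BEAS-2B difference was 1.13 (SE 0.43, adjusted p = 0.338) with all libraries and 1.77 (SE 0.19, adjusted p = 0.000667) without replicate 2. The rise was larger in A549 than in H446 by 1.87 log2 units (SE 0.47, adjusted p = 0.00508). Of the 50-base runs in MDM2 transcripts, 10.4% also occurred in transcripts of other genes, mostly of 2 uncharacterized genes at the same locus, so reads there may be shared.

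MDM4, the other inhibitor of p53, fell in A549 and H446 and did not pass in BEAS-2B. In A549 it was 6.57, 6.43 and 5.78 FPKM in controls and 4.25, 5.48 and 5.49 after irradiation (log2 difference -0.26, SE 0.09, adjusted p = 0.0235). In H446 it was 5.01, 5.04 and 5.13 FPKM before and 4.56, 3.81 and 3.80 after (log2 difference -0.26, SE 0.07, adjusted p = 0.0152). The groups did not overlap in either line. Both calls were close to the threshold, and the adjusted p rose to 0.0936 in A549 without 10 Gy replicate 1, to 0.0801 and 0.0657 without control replicates 1 and 2, and to 0.0509 and 0.0546 in H446 without 10 Gy replicates 2 and 3. Neither passed without a filter (0.133 in A549 and 0.0658 in H446), and the H446 call ended in the shared fit of 18 libraries (0.0586). In BEAS-2B it read 5.62, 4.41 and 5.35 FPKM before and 4.50, 4.27 and 5.46 after, which overlapped (log2 difference -0.09, 95% interval -0.34 to 0.15, and -0.03, -0.29 to 0.22, without replicate 2).

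The ratio of MDM2 to MDM4 was followed in each library. In A549, where MDM2 rose and MDM4 fell, it went from 4.25 ± 0.218 in controls to 18.5 ± 2.62 after 10 Gy, with no irradiated library under 15.8 and no control over 4.43. In H446 the controls were 2.31, 2.40 and 2.19 and the irradiated libraries 2.59, 2.74 and 2.62, a small shift with no overlap in a line where the difference of both genes was below 0 (-0.11 for MDM2, not past the threshold, and -0.26 for MDM4). In BEAS-2B the controls were 3.36, 3.96 and 3.41 and the irradiated libraries 10.6, 3.79 and 16.1, with replicate 2 inside the control range. On the log2 scale with 1 FPKM added, the differences were 2.02 in A549, 0.16 in H446 and 1.22 in BEAS-2B. The exact two-sided permutation test gave p = 0.10, 0.10 and 0.20, where 0.10 is the smallest p that 3 against 3 allows. In BEAS-2B the difference was 1.81 without 10 Gy replicate 2 (exact permutation p = 0.10, the smallest that 3 against 2 allows) and 0.77 without 10 Gy replicate 3.

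**Figure D3:**
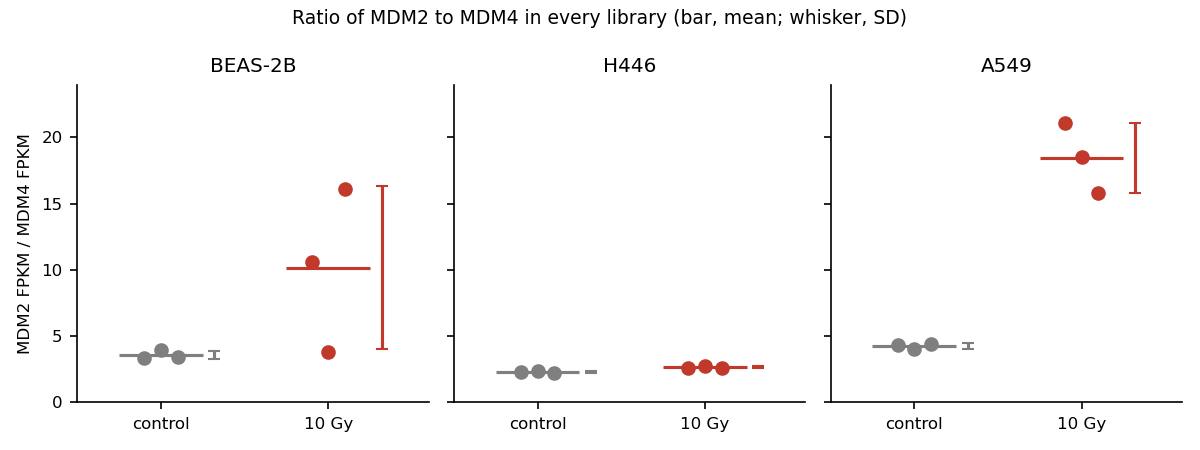
Ratio of MDM2 FPKM to MDM4 FPKM (vertical axis) in each control and 10 Gy library of the 3 lines, with a bar at the mean and a whisker of 1 SD (n = 3). A549 libraries rose from about 4.25 to 18.5, H446 libraries stayed between 2.19 and 2.74, and BEAS-2B replicate 2 stayed at 3.79 while the other 2 reached 10.6 and 16.1.

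PPM1D, whose phosphatase product dampens damage signalling, was 8.96, 8.49 and 8.31 FPKM in A549 controls and 18.4, 19.6 and 19.1 after irradiation. The groups were far apart (2.22-fold, log2 difference 1.06, SE 0.05, adjusted p = 1.47e-08). H446 stayed between 4.79 and 5.27 FPKM in all 6 libraries (log2 difference -0.03, 95% interval -0.16 to 0.10). In BEAS-2B it was 7.74, 7.94 and 7.68 FPKM before and 15.0, 7.79 and 16.3 after, so that replicates 1 and 3 were 1.93 and 2.09 times the control mean and replicate 2 was at it. The difference there was 0.61 (SE 0.20, adjusted p = 0.289), and 0.92 (SE 0.09, adjusted p = 0.000241) without replicate 2.

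CCNG1 rose in H446. It went from 88.5, 86.4 and 87.6 FPKM to 110, 120 and 122, a 1.35-fold rise (log2 difference 0.42, SE 0.04, adjusted p = 5.27e-05). CCNG1 transcripts are AT-rich (38.2% GC, with 8.58% of genes lower), and values in irradiated H446 libraries ran higher toward low GC (the correlations above). After a correction for GC content the difference was 0.35 (adjusted p = 4.8e-05), and in that fit PHLDA3 also passed as higher (0.18, adjusted p = 0.02) and ZMAT3 as lower (-0.22, adjusted p = 0.0378). In A549 it rose from 120, 116 and 117 FPKM to 205, 217 and 225 (1.83-fold, log2 difference 0.87, SE 0.04, adjusted p = 1.13e-08). In BEAS-2B, which had the highest control level, it was 242, 221 and 248 FPKM before and 252, 194 and 290 after (log2 difference 0.03, 95% interval -0.25 to 0.32), and without replicate 2 the interval was -0.02 to 0.40. The A549 rise exceeded that of H446 (difference 0.45, SE 0.13, adjusted p = 0.0146) and that of BEAS-2B (difference between BEAS-2B and A549 -0.84, SE 0.13, adjusted p = 0.000164).

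CDKN1A encodes p21, the kinase inhibitor through which p53 halts the cell cycle. In A549 it rose from 101, 106 and 103 FPKM to 318, 294 and 297 (2.93-fold, log2 difference 1.54, SE 0.04, adjusted p = 8.33e-11), the 10th highest of all genes tested. In H446 it was 75.7, 72.8 and 71.7 FPKM before and 72.4, 63.6 and 65.9 after, which overlapped (log2 difference -0.13, 95% interval -0.23 to -0.02, adjusted p = 0.0642). With GC correction that value was 0.01, and without H446 10 Gy replicate 1 it was -0.18 and passed (adjusted p = 0.00631). In BEAS-2B the controls were 79.9, 86.4 and 86.1 FPKM and the irradiated libraries 310, 102 and 488, all above the controls. Replicate 2 was 1.22 times the control mean, against 3.68 and 5.80 in the other 2. CDKN1A had the 5th highest difference of all genes in BEAS-2B (1.56, SE 0.42, adjusted p = 0.25), and without replicate 2 it was 2.2 (SE 0.15, adjusted p = 3.63e-05). In A549 and BEAS-2B its response exceeded that of H446 by 1.67 (SE 0.45, adjusted p = 0.00803) and 1.68 (SE 0.45, adjusted p = 0.0142), and after GC correction the difference between BEAS-2B and H446 was 1.46 and did not pass (adjusted p = 0.0559). Between BEAS-2B and A549 the difference was 0.01 with a 95% interval of -0.93 to 0.96, and without replicate 2 the BEAS-2B response was larger by 0.65 (adjusted p = 0.0043).

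ZMAT3, an RNA-binding zinc finger protein, and PHLDA3, a repressor of AKT signalling, also rose in A549. ZMAT3 went from 5.63, 5.55 and 5.17 FPKM to 14.7, 14.9 and 14.6 (2.71-fold, log2 difference 1.29, SE 0.05, adjusted p = 4.44e-09). In H446 ZMAT3 was lower in all 3 irradiated libraries (2.37, 2.19 and 2.30 FPKM against 2.70, 2.75 and 2.52), and the difference of -0.15 did not pass (adjusted p = 0.105), whereas it passed at -0.22 after GC correction (adjusted p = 0.0378). In BEAS-2B ZMAT3 was 8.54, 8.13 and 8.19 FPKM before and 12.4, 7.38 and 14.7 after (0.38, adjusted p = 0.427; without replicate 2, 0.64, adjusted p = 0.00607). PHLDA3 went from 17.8, 18.4 and 17.1 FPKM to 35.2, 34.8 and 33.1 in A549 (1.93-fold, log2 difference 0.91, SE 0.05, adjusted p = 1.82e-08). In H446 PHLDA3 overlapped, at 13.8, 13.9 and 13.0 FPKM before and 15.4, 13.1 and 13.1 after (log2 difference 0.03, 95% interval -0.11 to 0.17), and it passed at 0.18 after GC correction (adjusted p = 0.02). In BEAS-2B PHLDA3 was 10.2, 11.5 and 11.0 FPKM before and 21.7, 11.9 and 24.2 after, with all irradiated libraries above the controls (0.71, adjusted p = 0.25; without replicate 2, 1.01, adjusted p = 0.000218). Of the 50-base runs in PHLDA3 transcripts, 16.4% also occurred in another gene, nearly all of them in 1 uncharacterized gene.

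AEN, a nuclease that acts in apoptosis, had the smallest rise of the 8 genes that rose in A549. In A549, which had the highest control level, it went from 36.4, 36.6 and 34.2 FPKM to 40.9, 40.4 and 40.7, a 1.14-fold rise with no overlap (log2 difference 0.18, SE 0.04, adjusted p = 0.00252). That call was lost when the 3 lines shared 1 estimate of the spread (adjusted p = 0.311). In H446 all 6 libraries lay between 12.7 and 13.6 FPKM (log2 difference -0.02, 95% interval -0.13 to 0.09). In BEAS-2B it was 18.2, 20.4 and 19.8 FPKM before and 31.6, 20.5 and 39.8 after (1.57-fold, log2 difference 0.58, adjusted p = 0.277). The same difference passed in the shared fit (adjusted p = 0.0195), where the spread was estimated over the 3 lines together. Without replicate 2 the BEAS-2B difference was 0.83 (SE 0.10, adjusted p = 0.002), larger than in A549 by 0.65 (SE 0.10, adjusted p = 9.99e-05). With all libraries that difference was 0.40 (95% interval -0.01 to 0.80, adjusted p = 0.13).

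RPS27L, a ribosomal protein gene whose product is known to bind MDM2, separated A549 from the other 2 lines. In A549 it rose from 143, 151 and 136 FPKM to 334, 315 and 289 (2.18-fold, log2 difference 1.12, SE 0.05, adjusted p = 1.58e-08). In H446 it was 78.8, 77.0 and 81.2 FPKM before and 76.8, 88.6 and 73.3 after (log2 difference 0.01, 95% interval -0.13 to 0.14). In BEAS-2B it was 94.2, 87.7 and 107 FPKM before and 94.1, 89.4 and 128 after, which overlapped with and without replicate 2 (log2 difference 0.09, 95% interval -0.19 to 0.38, and 0.19, -0.09 to 0.47, without it). The response was larger in A549 than in H446 by 1.11 (SE 0.15, adjusted p = 2.42e-05) and lower in BEAS-2B than in A549 (difference -1.03, SE 0.15, adjusted p = 7e-05). RPS27, the paralog in the ribosome, was at 3394 ± 206 FPKM before and 3457 ± 260 after in A549 (adjusted p = 0.756), and RPS27L shared 0 of its 9268 50-base runs with it.

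Set side by side, the response of 7 of the 9 genes was larger in A549 than in H446, MDM2, CDKN1A, PPM1D, CCNG1, ZMAT3, PHLDA3 and RPS27L, against 34.6% of 13071 genes that differed (19.3% higher and 15.3% lower). For AEN that difference was 0.20 (95% interval -0.20 to 0.61), and for MDM4 it was 0.00 (95% interval -0.29 to 0.29). Between BEAS-2B and H446, 4 genes were higher (CDKN1A, PPM1D, AEN and PHLDA3) and CCNG1 was lower, against 22.7% of genes (13.7% higher and 8.99% lower). After GC correction PPM1D was the only one of these 5 still called (adjusted p = 0.0431), with CDKN1A at 0.0559, AEN at 0.102, CCNG1 at 0.144 and PHLDA3 at 0.259, and ZMAT3 was called in addition (0.0162). Of all genes, 1382 of 12930 were called in that fit, 620 higher and 762 lower. PPM1D itself was not called without a filter (0.0811), after quantile normalization (0.0676) or with most single libraries left out (0.0501 to 0.11 in those fits). AEN, PHLDA3 and CCNG1 were not called without a filter either (0.0666, 0.0665 and 0.0784). The count ranged from 1 to 6 with single libraries left out. Between BEAS-2B and A549, CCNG1, ZMAT3 and RPS27L were lower, against 30.6% of genes (16.0% higher and 14.6% lower). Without BEAS-2B 10 Gy replicate 2, the same 7 genes were larger in A549 than in H446 (37.9% of genes, 21.2% higher and 16.7% lower), 6 were higher in BEAS-2B than in H446 (18.5%, 11.8% higher and 6.69% lower), and against A549 2 were higher and 3 lower in BEAS-2B (30.0%, 16.1% and 13.9%). These comparisons share libraries with each other and use 1 estimate of the spread per gene over the 3 lines, although BEAS-2B varied more. In single libraries, all 9 genes of BEAS-2B 10 Gy replicate 3 were above the control mean, 7 in replicate 1 and 4 in replicate 2, where the 3 control libraries themselves had 4, 4 and 7. Groups without overlap were counted for 9 genes in A549 (8 higher, against 29.0% of all genes, and 1 lower, against 29.5%). In H446 there were 1 higher and 2 lower (20.4% and 29.9% of all genes), and in BEAS-2B 3 higher (7.48%) and 0 lower (8.87%), or 7 higher without replicate 2 (13.8%).

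Most of the 30 other p53 targets on a list rose in A549. That list was chosen with earlier results of these data known. Of the 30 genes, 29 were tested in A549, where 25 rose, 3 fell and 1 did not pass (51.7% of all genes were called). The median log2 difference was 0.74 (median of all genes 0.00). The 3 largest were TP53INP1, a stress-induced regulator of autophagy (3.47 to 15.9 FPKM, log2 difference 1.92, SE 0.06, adjusted p = 2.28e-10), FDXR, the ferredoxin reductase (44.8 to 156, 1.78, adjusted p = 3.41e-11), and SESN1, an antioxidant and inhibitor of mTORC1 (5.74 to 18.3, 1.52, adjusted p = 2.55e-09). Named after their values were seen, the 3 that fell were SESN2 (-0.57), GADD45A (-0.53) and PMAIP1 (-0.25). In H446 5 of 27 rose, 4 fell and 18 did not pass (38.4% of all genes were called), with a median of 0.00. The largest there were the cytokine gene GDF15, which fell from 53.1 ± 2.80 to 34.9 ± 0.87 FPKM (log2 difference -0.59, adjusted p = 6.13e-06), and the kinase gene PLK2 and the apoptosis gene PMAIP1, which rose by 0.51 and 0.44.

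In BEAS-2B 0 of 28 other targets passed with all libraries, although 27 of 28 had positive values and the median was 0.42. Without replicate 2, 22 of 27 rose and 0 fell, with a median of 0.65, where 1.92% of all genes were called higher and 0.0771% lower. The largest was GDF15, at 2.18, 1.85 and 1.96 FPKM in controls and 29.7, 3.01 and 32.1 after irradiation (without replicate 2, log2 difference 3.41, SE 0.09, adjusted p = 2.28e-08). It was followed by TP53I3, a quinone oxidoreductase gene (2.11, adjusted p = 0.000137), and BTG2, an antiproliferative gene (1.97, adjusted p = 1.02e-05). Replicate 2 had been left out after genes of the p53 loop read low in it. Targets that go with those genes are then called more readily, so the calls without replicate 2 only describe the remaining libraries.

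**Figure D4:**
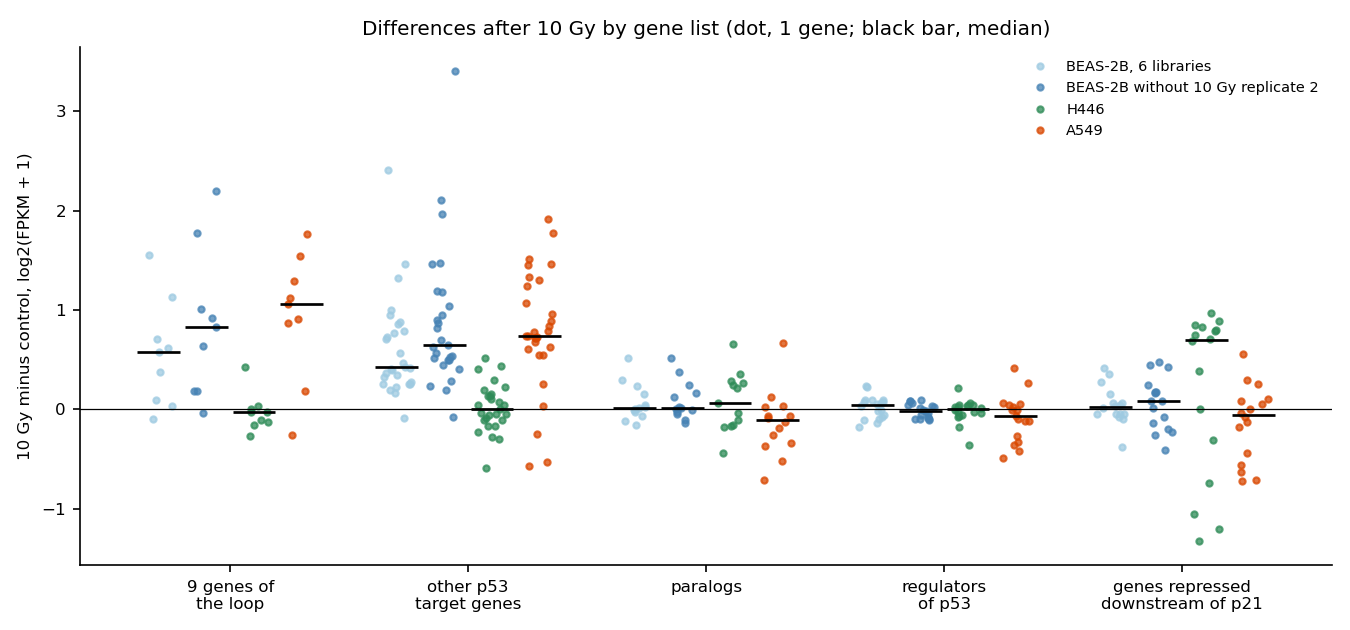
Difference between 10 Gy and control on the log2(FPKM + 1) scale (vertical axis) for every tested gene of 5 lists, with 1 dot per gene and a black bar at the median, for the 3 lines and for BEAS-2B without 10 Gy replicate 2. The 9 genes and the other p53 targets have medians of 1.06 and 0.74 in A549 and near 0 in H446, and the paralogs and regulators have medians near 0 in all lines.

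Upstream regulators of p53 were measured at the RNA level only. Of 18 such genes, 2 rose and 5 fell of 17 tested in A549 (median -0.07), 1 rose and 2 fell of 18 in H446 (median 0.00), and 0 passed in BEAS-2B with or without replicate 2. Of all genes, 51.7% were called in A549 and 38.4% in H446. The largest in A549 were the acetyltransferase gene KAT5 (14.2 to 9.86 FPKM, log2 difference -0.49, adjusted p = 1.03e-05), the ubiquitin ligase gene RCHY1 (-0.42, adjusted p = 0.000152) and the kinase gene HIPK2 (0.42, adjusted p = 3.57e-05). In H446 they were TRIM28 (-0.36, adjusted p = 0.000198), RCHY1, which rose there (0.21, adjusted p = 0.0373), and CDKN2A (-0.18, adjusted p = 0.0148). CDKN2A, whose locus encodes the MDM2 inhibitor ARF and known to be deleted in A549, stood at 214 FPKM in H446 controls, 166 in BEAS-2B controls and at most 0.09 in any A549 library.

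Paralogs of the 9 genes are listed next. Of 14, 2 rose and 7 fell in A549 (median -0.11), and of 13 tested in H446 6 rose and 3 fell (median 0.07), against 51.7% and 38.4% of all genes called. CCNG2, the relative of CCNG1, rose in both lines, from 9.40 to 15.5 FPKM in A549 (log2 difference 0.67, adjusted p = 5.81e-07) and from 12.2 to 19.9 in H446 (0.66, adjusted p = 6.14e-06), where it was the largest of the list. PHLDA2 fell in A549 (-0.52, adjusted p = 0.00105) and H446 (-0.44, adjusted p = 0.000424), and in BEAS-2B it was 9.81 ± 0.549 FPKM before and 14.5 ± 0.125 after. That BEAS-2B difference was 0.52 both ways, with adjusted p = 0.241 over all libraries, which did not pass, and 0.0116 without replicate 2. The 3 irradiated BEAS-2B libraries read 14.6, 14.5 and 14.4 FPKM, so replicate 2 was not apart for PHLDA2. ISG20, a relative of AEN, fell in A549 from 5.78 to 3.15 FPKM (-0.71, adjusted p = 1.03e-05) and rose in H446 (0.24, adjusted p = 0.0167). CDKN1B, the p27 gene related to CDKN1A, rose in H446 from 29.5 to 38.1 FPKM (0.36, adjusted p = 7.47e-05) and stood at 26.3 and 27.0 in A549.

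Of the other paralogs, ISG20L2 (-0.37), PHLDA1 (-0.34), PPM1B (-0.25), ZMAT5 (-0.19) and PPM1G (-0.13) fell in A549 and ZMAT2 rose (0.12). In H446 ZMAT2 (0.29), PPM1B (0.27) and CDKN1C (0.22) rose and ISG20L2 (-0.18) and PPM1G (-0.16) fell. PPM1A lay between 8.19 and 16.8 FPKM on average in all groups and ZMAT1 reached 1.27 FPKM in A549 controls, and neither passed.

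Genes known to be repressed downstream of p21 moved both ways in H446. Of 16, 10 rose and 5 fell there (median 0.70 against -0.03 for all genes), where 14.8% of all genes were called higher and 23.6% lower. The genes that rose included the mitotic genes CCNB1 (95.8 ± 1.58 to 188.6 ± 4.75 FPKM, log2 difference 0.97, adjusted p = 4.54e-08), BUB1 (0.89, adjusted p = 1.16e-07) and PLK1 (0.85, adjusted p = 7.35e-08), named after their values were seen as the 3 largest rises. The largest falls were in the replication helicase gene MCM5 (77.7 ± 1.50 to 30.3 ± 1.09 FPKM, log2 difference -1.33, adjusted p = 3.8e-08), the cyclin E gene CCNE2 (-1.20, adjusted p = 2.54e-07) and the transcription factor E2F1 (-1.05, adjusted p = 5.84e-07). In A549 3 rose, 6 fell and 7 did not pass (median -0.06), a share near the 51.7% of all genes called there. The largest changes were in MCM5 (21.6 to 12.7 FPKM, -0.72, adjusted p = 3.87e-07), MYBL2 (-0.71, adjusted p = 3.62e-07) and E2F1 (-0.63, adjusted p = 4.89e-05). In BEAS-2B 0 passed, and without replicate 2, where 1.92% of all genes were called higher, the mitotic genes PLK1 (0.47, adjusted p = 0.0366), CDC20 (0.44, adjusted p = 0.0192) and CCNB1 (0.43, adjusted p = 0.0394) rose and 0 fell.

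The genes whose pattern across the 18 libraries was most like the mean of the 9 were found among 9366 other genes with a mean of at least 5 FPKM, after subtracting each line's own control mean. The 10 highest were RAP2B (Pearson r = 0.991), SESN1 (0.985), CMBL (0.983), E2F7 (0.979), RRM2B (0.976), HSPA12A (0.975), FDXR (0.968), FUCA1 (0.966), RETSAT (0.963) and BTG2 (0.96). Of these 10, 5 (SESN1, CMBL, RRM2B, FDXR and BTG2) were on the list of p53 targets. RAP2B, a small GTPase gene, stood at 5.86 FPKM in A549 controls and had log2 differences after 10 Gy of 0.68 in A549, 0.44 in BEAS-2B and 0.00 in H446. The 5 most opposite were KCNMA1 (-0.929), TBP (-0.899), ADAMTS1 (-0.876), EFEMP1 (-0.874) and SLC39A8 (-0.868). Among the 9 genes themselves, the correlation with the mean of the other 8 was highest for MDM2 (0.994) and PPM1D (0.987), lower for AEN (0.689) and CCNG1 (0.654), and -0.244 for MDM4. These 18 libraries share 3 lines and their controls, so the values are descriptions.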

How the data were processed

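Poly(A) RNA of 18 libraries was sequenced as single-end 50-base reads on a BGISEQ-500. The deposited values are taken as FPKM per gene, computed by the authors (the unit is read from the values and the tools named); the submitters' notes name HISAT2 2.0.4, Bowtie2 2.2.5, RSEM 1.2.12 and hg38 without roles. Depth and counts are unknown, so no counting interval is given. Total FPKM per library was 461255 to 529936. Strand use in counting is not given in the sources used here.

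Genes were tested with limma 3.58.1 (R 4.3.3) on log2(FPKM + 1), which understates changes of low genes. Each line was fitted alone over genes at 1 FPKM or more in at least 3 of 6 libraries, with an intensity trend and Benjamini-Hochberg adjustment at 0.05. Differences between lines came from 1 fit of 6 group means over 18 libraries. The ratio of MDM2 to MDM4 was tested by exact permutation. The analysis was tested on simulated data with independent noise in each gene, apart from a planted GC trend in H446. A discordant library was not simulated. All 9 genes passed the filter in every line. Groups and replicate numbers came from the labels, which do not say that replicates were separate cultures, so p-values measure the spread between these libraries, which may be technical.

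Named genes were the 9, the 3 called genes with the largest change of each list in each line, paralogs at 1 FPKM or more, and the 10 most and 5 least similar genes. Genes, lists and tests were chosen with earlier results of these data known. GC content and transcript runs were taken from GENCODE v29. GC values were found for 17850 of 18475 genes. Replicates shared at most 3.22% identical values above 0. The gene encoding p53 itself is not reported here. Alternatives covered scaling, GC correction, filters, pseudocount, the limma trend, a shared fit, a stricter threshold, the replicate block and each library left out. Figures were drawn with matplotlib 3.10.9 (Python 3.11.15).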

Additional observations from a re-analysis of the deposited data

Results flagged for a closer look

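The values flagged here are responses to 10 Gy that differed between lines by the test of the difference itself (limma over 18 libraries, adjusted p below 0.05, log2(FPKM + 1) scale). Groups of 3 libraries were too small for a test of outlying samples.

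Against H446, the A549 response was larger for MDM2 (1.87, adjusted p = 0.00508), CDKN1A (1.67, adjusted p = 0.00803), ZMAT3 (1.44, adjusted p = 2.67e-05), RPS27L (1.11, adjusted p = 2.42e-05), PPM1D (1.09, adjusted p = 0.000871), PHLDA3 (0.88, adjusted p = 0.00425) and CCNG1 (0.45, adjusted p = 0.0146).

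Against H446, the BEAS-2B response was larger for CDKN1A (1.68, adjusted p = 0.0142), PHLDA3 (0.68, adjusted p = 0.0321), PPM1D (0.64, adjusted p = 0.0408) and AEN (0.60, adjusted p = 0.0328), and lower for CCNG1 (-0.39, adjusted p = 0.0422). After GC correction 4 of these 5 did not pass, with CDKN1A at 1.46 (adjusted p = 0.0559), PHLDA3 at 0.43 (adjusted p = 0.259), AEN at 0.51 (adjusted p = 0.102) and CCNG1 at -0.23 (adjusted p = 0.144). In that fit 1382 of 12930 genes were called. PPM1D, which passed there, did not without a filter (adjusted p = 0.0811), after quantile normalization (adjusted p = 0.0676) or with most single libraries left out. AEN (adjusted p = 0.0666), PHLDA3 (0.0665) and CCNG1 (0.0784) did not pass without a filter either, nor with several of the single libraries left out. Without BEAS-2B 10 Gy replicate 2 the CCNG1 difference was -0.23 and did not pass (adjusted p = 0.0701), and those of MDM2 (1.88, adjusted p = 9.89e-06) and ZMAT3 (0.79, adjusted p = 1.98e-05) did.

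Against A549, the BEAS-2B response was lower for RPS27L (-1.03, adjusted p = 7e-05), ZMAT3 (-0.91, adjusted p = 0.00199) and CCNG1 (-0.84, adjusted p = 0.000164). Without BEAS-2B 10 Gy replicate 2 these were -0.93, -0.65 and -0.68, and all passed.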

How the results depend on the processing

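In A549 8 to 9 of the 9 genes were called with each library left out (8 without 10 Gy replicate 1 or control replicates 1 or 2) and 8 without a filter or in the shared fit, and 7 genes differed between A549 and H446 in every such fit. In BEAS-2B the number of the 9 genes called was 0 to 6 with each library left out, where 6 came without 10 Gy replicate 2, 4 when 18 libraries shared 1 fit, and 5 with a replicate block. The numbers were not taken as pairs, since the labels do not say that a number marks a shared culture. Deviations of same-numbered libraries correlated at -0.125, 0.324 and 0.311 in BEAS-2B and at 0.19, 0.0102 and 0.0823 in H446. In A549 these correlations were 0.01, -0.0549 and -0.0993. With the block and GC correction together 0 of the 9 genes were called in BEAS-2B.

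In H446 the count was 2, with 4 after GC correction, 1 without a filter and in the shared fit, and 1 to 4 with each library left out (4 without 10 Gy replicate 1, 1 without 10 Gy replicate 2 or 3). For BEAS-2B against H446 the count of 5 became 2 after GC correction (PPM1D, and ZMAT3, which was not among the 5), 1 without a filter, 7 with the replicate block and 7 with FPKM of at least 1 in every library (MDM2 and ZMAT3 added in both), and 1 to 6 with each library left out, which was 1 without BEAS-2B 10 Gy replicate 1 or control replicates 1 or 3, or without H446 10 Gy replicates 2 or 3 or control replicates 1 or 2, 2 without H446 control replicate 3, and 3 without BEAS-2B 10 Gy replicate 3, A549 10 Gy replicate 2 or any A549 control. For BEAS-2B against A549 the range was 3 to 5, with 5 without BEAS-2B 10 Gy replicates 2 or 3. The control levels gave 4 to 7, 5 to 9 and 6 to 9 in the same fits for BEAS-2B against H446, BEAS-2B against A549 and A549 against H446. The ratio of MDM2 to MDM4 kept its sign with a pseudocount of 0.1 and with each library left out, and the exact sign-flip test with the replicate block gave p = 0.50 in BEAS-2B and 0.25, the smallest possible with 3 pairs, in the other 2 lines.

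Several values that did not pass changed sign. In H446, GC correction, alone or with the replicate block, gave 0.0063 for CDKN1A, 0.0294 for AEN and -0.0245 for RPS27L, while CDKN1A passed as lower with the replicate block alone (-0.13, adjusted p = 0.0365) and without 10 Gy replicate 1, and quantile normalization gave 0.0374 for PPM1D and 0.0115 for AEN. With libraries left out, H446 values spanned -0.0499 to 0.0014 for AEN, -0.0404 to 0.0663 for PHLDA3 and -0.0728 to 0.0627 for RPS27L, and BEAS-2B values -0.0981 to 0.19 for CCNG1 and -0.0659 to 0.19 for RPS27L. For BEAS-2B against A549 the response of CDKN1A was -0.0919 after GC correction and -0.47 to 0.652 with libraries left out (past the threshold at 0.652, without BEAS-2B 10 Gy replicate 2), that of MDM2 -1.17 (past the threshold, without BEAS-2B 10 Gy replicate 3) to 0.013 and that of PHLDA3 -0.39 to 0.0921. The response of RPS27L for BEAS-2B against H446 was -0.0721 to 0.184. For MDM4, the response of A549 against H446 was -0.021 at equal totals, -0.121 after quantile normalization and -0.0496 to 0.103 with libraries left out, and the control level of BEAS-2B against H446 was -0.0099, -0.0772 and -0.0167 after GC correction, at equal totals and after quantile normalization, and -0.0481 to 0.0975 with libraries left out. Over all genes, BEAS-2B had 0 calls but 10 without a filter, 439 with the replicate block and 842 in the shared fit. H446 had 1698 higher and 2709 lower calls, but 1816 and 1707 after GC correction, 2171 and 2188 after quantile normalization and 1880 and 2328 at equal totals. The causes were not tested. Depth is unknown, and 3 libraries per group limit the precision.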
